A study of Mus musculus with 16 samples.

Results

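The genes described here are the replication-dependent histone genes that mouse nomenclature placed in numbered clusters: every protein-coding row of the deposited expression table whose symbol starts with Hist1h, Hist2h, Hist3h or Hist4h. The rule uses names alone and found 58 of the 30095 rows, out of 17785 protein-coding rows. All 58 gene positions matched the GENCODE M21 annotation of mouse build mm10. They comprised 6 genes for the linker histone H1, 11 for H2A, 17 for H2B, 11 for H3 and 13 for H4. Chromosome 13 carried 47 of them, chromosome 3 carried 8, chromosome 11 carried 2 and chromosome 6 carried 1.

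Bulk RNA was sequenced from ground lungs of C57BL/6 mice bearing HKP1, a lung cancer line, and every group carried tumour. Lungs received radiation (RT) at 0, 4 or 8 Gy together with control IgG or an antibody to the checkpoint receptor PD-1, and were taken 24 to 48 hours later, with 3 to 4 mice pooled into each library. There were 16 libraries: 3 IgG and 2 anti-PD-1 pools at 0 Gy, 2 IgG and 3 anti-PD-1 pools at 4 Gy, and 3 pools of each at 8 Gy. In such bulk tissue, fewer cells of a type and less RNA per cell cannot be told apart, and tumour and lung cells were not separated. Nothing in the labels states that a group's pools were drawn from different animals; each p-value therefore reflects only how these pools scatter.

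Core histones H2A, H2B, H3 and H4 form the spool around which DNA is wound, and H1 binds the DNA between spools. Most clustered histone genes have no introns and are transcribed in S phase, when new DNA must be packaged. Their messages are the best known exception to polyadenylation: instead of a poly(A) tail they end just after a short stem-loop, which is bound by the stem-loop binding protein Slbp. Libraries were made with the TruSeq RNA Sample Prep Kit, which as sold captures RNA through its poly(A) tail, a step the labels do not describe. Some clustered genes are also known to make a longer, polyadenylated message in cells that no longer divide.

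The stem-loop is shown first because it marks where the replication-dependent message is cut. Of the 58 genes, 43 had a match to it in their longest annotated transcript and 15 did not. The annotated transcripts of Hist1h1b, Hist1h2bl, Hist1h2bn, Hist1h3h, Hist1h3i, Hist1h4k and Hist2h2bb hold no base after the stop codon. A missing match there does not show that the gene lacks the loop. Hist1h2bp had a match in another of its transcripts. In the lines below the stem-loop is in capitals, with 5 bases on each side, read 5′ to 3′ along the GENCODE M21 transcript. Hist1h1c, Hist3h2a and Hist1h4i are among the most abundant members, whose annotated transcripts run far past the loop. Hist2h2aa2 and Hist1h4h are the most abundant members per length whose transcripts stop soon after it.
Hist1h1c: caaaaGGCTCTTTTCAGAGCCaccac
Hist3h2a: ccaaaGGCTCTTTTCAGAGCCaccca
Hist1h4i: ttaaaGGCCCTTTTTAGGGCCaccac
Hist2h2aa2: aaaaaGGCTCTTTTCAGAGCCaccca
Hist1h4h: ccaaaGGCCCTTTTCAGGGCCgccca
The form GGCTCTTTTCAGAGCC was shared by 23 members, and the form of Hist1h4i by 2, itself and Hist2h4. The transcript of Hist1h1c ran 840 bases past its loop, that of Hist3h2a 1643 and that of Hist1h4i 330, whereas those of Hist2h2aa2 and Hist1h4h ended 35 and 46 bases past theirs. A polyadenylation signal (AATAAA or ATTAAA) stood within the last 50 bases of the transcripts of Hist1h1c, Hist3h2a and Hist1h4i, whose ends are long, and also of Hist1h4h, whose end is short, but not in that of Hist2h2aa2.

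Few of these genes were measured well. Values are CPM, read counts scaled to a common library total, in which 1 read was worth 0.0155 to 0.0418 CPM depending on the library's depth. All 58 had a value above the background constant in at least 1 library, but each library held a value for only 37 to 53 of them, 3 reads or more for 21 to 40, and 1 CPM or more for 5 to 9. Only 22 members had a value in all 16 libraries and 13 had 3 reads or more in all 16. A level of 1 CPM in at least 2 libraries, the limit used for testing, was reached by 8 of 58 members, 13.8%, against 81.1% of all protein-coding rows. With the limit at 0.1, 0.5 or 5 CPM, 43, 15 or 5 members reached it.

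Those 8 genes held 90.8 to 93.7% of all clustered histone CPM in each library, and Hist1h1c with Hist1h2bc alone held 59.0 to 70.6%. Hist1h1c encodes an H1 linker histone (mean 34.7 CPM over 16 libraries) and Hist1h2bc an H2B (22.6 CPM). Hist3h2a, an H2A gene, followed at 10.3 CPM, Hist2h2be, an H2B gene, at 6.55, Hist2h2aa2, an H2A gene, at 3.28 and Hist1h4i, an H4 gene, at 3.02. Hist2h3c2, an H3 gene, and Hist1h2be, an H2B gene, were at 0.831 and 0.821 CPM. On mm10 as annotated by GENCODE M21, Hist1h1c lies at chr13:23738808-23740367, Hist1h2bc at chr13:23684199-23692908 and Hist1h4i at chr13:22040636-22041362. Hist2h2be lies at chr3:96221119-96223738, Hist2h2aa2 at chr3:96239749-96240276 and Hist3h2a at chr11:58954685-58956830. Of these, Hist1h2bc alone has an intron in its longest transcript, with 2 exons. No class was represented by more than 3 tested genes: 1 of 6 H1, 2 of 11 H2A, 3 of 17 H2B, 1 of 11 H3 and 1 of 13 H4.

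The other 50 members had means from 0.00405 CPM (Hist1h2af) to 0.504 CPM (Hist1h4h), with a median of 0.0756, and 31 members lay under 0.1 CPM. Hist1h4h, at 0.504 CPM, Hist1h2bq, at 0.496, Hist3h2ba, at 0.478, and Hist1h1d, at 0.470, had the highest means among them. Hist1h2be, the tested member of lowest mean, stood at 0.821. Hist1h4h and Hist1h4n each exceeded 1 CPM in 1 library.

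Per kilobase of annotated exon, which allows genes to be compared, the order changed. Hist1h1c stood at 22.2 CPM per kb and Hist1h2bc at 19.6, followed by Hist2h2aa2 at 6.21, Hist3h2a at 4.81, Hist1h4i at 4.15 and Hist2h2be at 2.50. Untested Hist1h4h, with its short transcript, came next at 1.07, above Hist2h3c2 at 0.815, while Hist1h2be fell to 0.185. The median over all 58 was 0.129 CPM per kb.

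**Figure D1:**
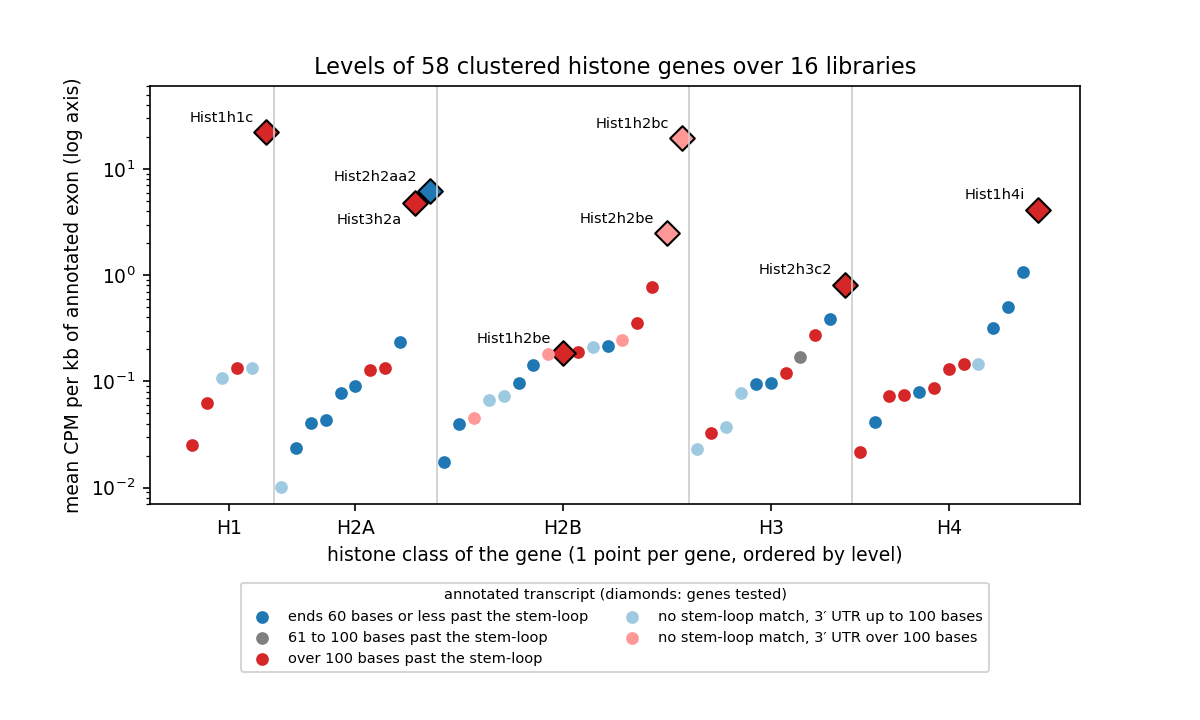
Mean level of each of the 58 clustered histone genes over 16 libraries, as CPM per kb of annotated exon on a log axis, grouped by histone class and coloured by how the annotated transcript ends; diamonds are the 8 genes tested. The overall median is 0.129, with class medians from 0.0904 (H2A) to 0.185 (H2B), and Hist1h1c and Hist1h2bc stand highest at 22.2 and 19.6.

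The members were then sorted by how their annotated transcript ends. Of 20 members whose transcript stops within 60 bases after the loop, 1 reached the limit (Hist2h2aa2), and their median was 0.0957 CPM per kb. Of 22 that run over 100 bases past it, 5 reached the limit, with a median of 0.134. The 1 remaining gene ended between these distances and was not tested. Among the 15 members without a loop match, 2 of the 5 with a 3′ untranslated region over 100 bases were tested, Hist1h2bc and Hist2h2be (median of the 5, 0.246 CPM per kb), and 0 of the 10 with a shorter one (median 0.0753). These 10 include the genes annotated only as far as the stop codon, whose true ends are not known here. Transcript length goes with these classes and also divides the level. Before that division the medians were 0.0515 CPM for the 20 members stopping within 60 bases and 0.238 CPM for the 22. A long annotated end did not ensure a high level: 17 of the 22 genes running past the loop stayed under the limit. Among them were Hist1h1d, Hist4h4 and Hist2h4 at 0.0632, 0.0215 and 0.0865 CPM per kb, or 0.470, 0.0616 and 0.141 CPM undivided. These are descriptions over genes that share clusters and sequence, and the part of poly(A) capture in them was not tested.

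Histone genes outside the clusters, most of which make polyadenylated messages in any phase of the cell cycle, gave the contrast within the same libraries. Of 14 such rows in the table, 12 passed the limit, with a median of 25.6 CPM per kb and a range from 1.56 to 119. H3f3b and H3f3a, which encode the replacement histone H3.3, stood at 119 and 34.8 CPM per kb, H1f0 at 72.1, H2afx, the variant phosphorylated at DNA breaks, at 32.4, and H2afz at 26.1. Hist1h1c and Hist1h2bc, at 22.2 and 19.6, lay just under the median of that list, and every other clustered gene at 6.21 or less.

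Pairs of clustered genes that start back to back offered a closer comparison, because the partners share the stretch of DNA between them. There were 8 such pairs, and in the 2 with a tested member the H2B gene was far above its neighbour. Hist1h2bc stood at 19.6 CPM per kb and Hist1h2ac at 0.128, a ratio of 153. Hist2h2be stood at 2.50 and Hist2h2ac at 0.0234, a ratio of 107. Hist2h2ac had a mean of 0.0122 CPM, a value in 5 of 16 libraries and 3 reads or more in 0. The size of that ratio is therefore uncertain. Each higher partner exceeded its neighbour's CPM in 16 of 16 libraries. In the other 6 pairs the ratio lay between 2.30 and 5.77, and in 5 of these 6 the H2B gene was again the higher. None of their genes was tested, with means from 0.0181 to 0.496 CPM, and the higher partner led in 11 to 16 libraries. Hist1h2bq and Hist1h2br share sequence with each other, as do their partners Hist1h2ao and Hist1h2ap. Those 2 pairs are therefore not fully separate observations.

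The DNA shared by each of these 2 unequal pairs is printed on the plus strand of GRCm38 (mm10), from RefSeq promoter records, with matches to 3 promoter motifs in capitals. The motifs searched on both strands were the box CCAAT, the TATA sequence TATAAA and the octamer ATTTGCAT, and one found on the minus strand appears as its reverse complement. The region between Hist1h2ac and Hist1h2bc spans 250 bases at chr13:23683949-23684198, and that between Hist2h2ac and Hist2h2be spans 238 bases at chr3:96220881-96221118.
Hist1h2ac/Hist1h2bc: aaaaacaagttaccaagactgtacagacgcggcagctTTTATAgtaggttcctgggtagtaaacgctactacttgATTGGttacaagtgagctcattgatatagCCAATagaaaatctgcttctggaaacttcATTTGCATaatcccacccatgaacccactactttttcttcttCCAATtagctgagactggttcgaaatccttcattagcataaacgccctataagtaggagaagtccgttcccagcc
Hist2h2ac/Hist2h2be: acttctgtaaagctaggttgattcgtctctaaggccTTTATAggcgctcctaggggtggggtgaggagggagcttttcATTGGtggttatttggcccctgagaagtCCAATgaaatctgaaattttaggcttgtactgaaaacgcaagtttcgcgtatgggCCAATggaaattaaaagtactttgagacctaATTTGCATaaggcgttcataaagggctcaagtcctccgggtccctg
Each region held 3 matches to CCAAT, 1 to TATAAA and 1 to the octamer. In both, the TATAAA match lay on the minus strand near the H2A gene, the partner with the low level. Across the members, 52 of 58 matched a RefSeq promoter record of 300 bases, 250 before and 50 after the start. CCAAT, on either strand, was in 43 of these 52, against 37.4% of all 32851 such records. TATAAA was in 28, against 13.6%, and ATTTGCAT in 9, against 1.74%. Of the 6 tested members with a record, CCAAT was in 5, TATAAA in 1 and ATTTGCAT in 1. A match is a run of letters, not a shown binding site.

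**Figure D2:**
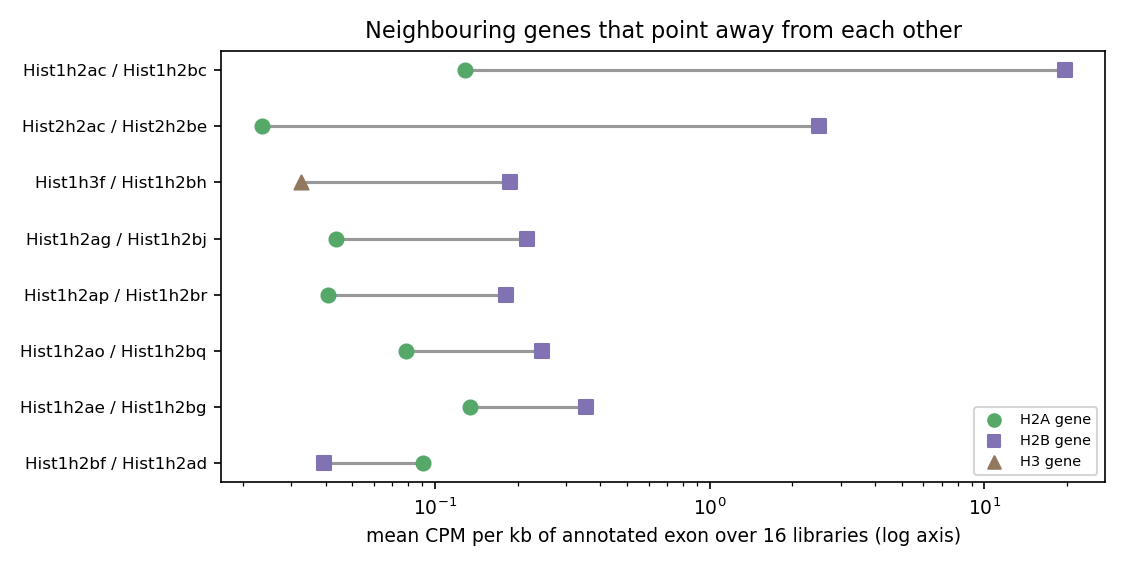
Mean CPM per kb over 16 libraries (log axis) for both genes of each back-to-back pair, joined by a line, with marker shape giving the histone class. Hist1h2ac with Hist1h2bc and Hist2h2ac with Hist2h2be are 153- and 107-fold apart, and the other pairs 2.30- to 5.77-fold. Hist2h2ac had 3 reads or more in 0 of 16 libraries, so the 107-fold is uncertain in size.

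Reads of several tested members can be shared with other genes, 4 of the 8 most plainly. Every stretch of 50 bases in Hist2h2aa2 also occurs in another annotated gene. One such gene is Gm20634, listed at 1.15 to 3.91 CPM at 0 Gy, 3.94 to 5.98 at 4 Gy and 2.28 to 5.52 at 8 Gy. Another is the near-identical copy Hist2h2aa1. In 7 libraries the copy was listed at 0.603 to 0.615% of the pair's summed CPM, in 3 others at 10.5 to 15.5% and in IgG 0 Gy replicate 2 at 59.9%, so the split between copies is uncertain. Hist3h2a overlaps Trim17 on the same strand, and Trim17 was listed at 0.150 to 0.953 CPM. Hist2h3c2 shared 63.5% of its 50-base stretches with other genes, Gm20634 among them. The span of Hist1h2be overlaps Hist1h1e on the same strand. Hist1h2bc shared 30.1% and Hist1h4i 28.9% of their 50-base stretches with other genes, close to the 31.5% of Hist3h2a. Over the whole family, 26 members shared more than 50% of their 50-base stretches with another gene.

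Radiation at 8 Gy was compared with 0 Gy on log2(CPM + 0.5) with limma, averaged over both antibodies, as were the later dose comparisons. H2B gene Hist1h2bc, H4 gene Hist1h4i and linker histone gene Hist1h1c rose, 3 of 8 tested members, and none fell. Over all 17546 genes tested, 20.7% changed and 4.68% rose. The median log2 change was 0.43 over the 8 members and -0.09 over all genes tested. Hist2h3c2 and Hist1h2be passed the limit only through irradiated libraries, 5 libraries each and none at 0 Gy, so the counts over the 8 are a description.

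In unirradiated lungs, Hist1h2bc stood at 19.4, 17.8 and 13.4 CPM with IgG and at 13.1 and 10.9 with anti-PD-1. After 8 Gy the IgG pools read 30.6, 18.8 and 25.6 and the anti-PD-1 pools 24.9, 24.8 and 28.01. All 8 Gy libraries but IgG replicate 2 lay above every 0 Gy library. The log2 fold change was 0.81 ± 0.14 (SE, limma, adjusted p = 0.00208), from a mean of 14.9 ± 3.5 CPM (SD, n = 5) to 25.5 ± 3.9 (SD, n = 6).

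For Hist1h4i the 0 Gy libraries read 2.65, 1.97 and 1.69 CPM with IgG and 1.86 and 1.72 with anti-PD-1. The 8 Gy libraries read 4.07, 3.33 and 2.93 with IgG and 3.55, 3.90 and 4.07 with anti-PD-1. Every 8 Gy library was above every 0 Gy library, which held for 1.54% of all genes tested and for no other tested member. Its log2 fold change was 0.76 ± 0.16 (SE, limma, adjusted p = 0.00579).

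Hist1h1c read 33.3, 34.02 and 23.8 CPM (IgG) and 25.6 and 25.9 (anti-PD-1) without radiation, and 44.4, 31.8 and 32.7 (IgG) and 40.7, 31.2 and 40.4 (anti-PD-1) after 8 Gy. The groups overlapped, with 2 IgG libraries at 0 Gy inside the 8 Gy range. Its change of 0.39 ± 0.13 (SE, limma, adjusted p = 0.0468) was close to the threshold of 0.05 and ended under 15 of the 25 alternatives tried. The other 5 tested members had changes from 0.11 (Hist2h2be) to 0.51 (Hist1h2be) and did not pass.

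At 4 Gy against 0 Gy, 4 of 8 tested members rose and none fell: Hist1h2bc, Hist3h2a, Hist2h2aa2 and Hist1h4i. Over all genes tested, 17.5% changed and 5.33% rose. The median log2 change was 0.59 over the 8 members and -0.14 over all genes tested. This comparison shares its 0 Gy libraries with the one at 8 Gy.

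Hist1h2bc at 4 Gy stood at 19.4 and 26.4 CPM with IgG and at 27.1, 31.96 and 29.9995 with anti-PD-1. It had risen by 0.85 ± 0.15 on the log2 scale (SE, limma, adjusted p = 0.00858). Hist3h2a went from 9.78, 7.79 and 9.84 CPM (IgG, 0 Gy) and 7.01 and 6.66 (anti-PD-1, 0 Gy) to 9.77 and 10.6 (IgG, 4 Gy) and 14.6, 13.8 and 16.2 (anti-PD-1, 4 Gy). Its 3 anti-PD-1 libraries at 4 Gy were above all others of the series, and its change was 0.61 ± 0.12 (SE, limma, adjusted p = 0.0134).

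Hist2h2aa2 had the largest SD relative to its mean among the 8 tested members, at 3.15, 0.399 and 2.51 CPM in the unirradiated IgG pools and 1.28 and 1.17 in the anti-PD-1 ones. The value of 0.399 is the library in which the copy took 59.9%, and the pair summed to 0.997 there. After 4 Gy the IgG pools read 1.97 and 2.83 and the anti-PD-1 pools 5.43, 12.1 and 8.66. The 3 anti-PD-1 libraries at 4 Gy were the highest of all 16, and the IgG libraries overlapped those at 0 Gy. Its change was 1.38 ± 0.38 (SE, limma, adjusted p = 0.0295), and summed with its copy Hist2h2aa1 the pair stood at 1.29 CPM (median) at 0 Gy and 5.51 at 4 Gy. That sum leaves out Gm20634, which shares its sequence and had medians of 1.82 CPM at 0 Gy and 4.45 at 4 Gy.

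Hist1h4i at 4 Gy read 2.43 and 2.68 CPM with IgG and 3.86, 4.90 and 2.69 with anti-PD-1, a change of 0.57 ± 0.17 (SE, limma, adjusted p = 0.0392). Hist1h1c read 31.2 and 35.6 with IgG and 44.5, 43.1 and 36.8 with anti-PD-1, and its change of 0.41 ± 0.14 (SE, limma) had an adjusted p of 0.0511. Hist2h2be had the only change below 0, -0.16 ± 0.16 (SE, limma, adjusted p = 0.477). Its levels were 7.03, 5.47, 6.55, 6.85 and 6.82 CPM in unirradiated pools, then 7.56 and 5.92 (IgG, 4 Gy) and 6.64, 5.60 and 3.45 (anti-PD-1, 4 Gy). The groups overlapped, and the lowest of these values was in anti-PD-1 replicate 3.

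The 2 tested members of lowest level are given on the same scale. Hist2h3c2 read 0.751, 0.338, 0.259, 0.714 and 0.219 CPM in unirradiated pools, then 0.680 and 0.596 (IgG, 4 Gy) and 1.44, 1.73 and 1.41 (anti-PD-1, 4 Gy). At 8 Gy it read 1.54, 1.19 and 0.631 with IgG and 0.751, 0.889 and 0.179 with anti-PD-1. Hist1h2be read 0.579, 0.652, 0.328, 0.412 and 0.606 CPM at 0 Gy, 1.30, 1.00, 1.61, 0.389 and 0.436 at 4 Gy and 0.828, 1.14, 1.61, 0.902, 0.833 and 0.492 at 8 Gy. Neither passed the test at either dose, and their dose groups overlapped.

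**Figure D3:**
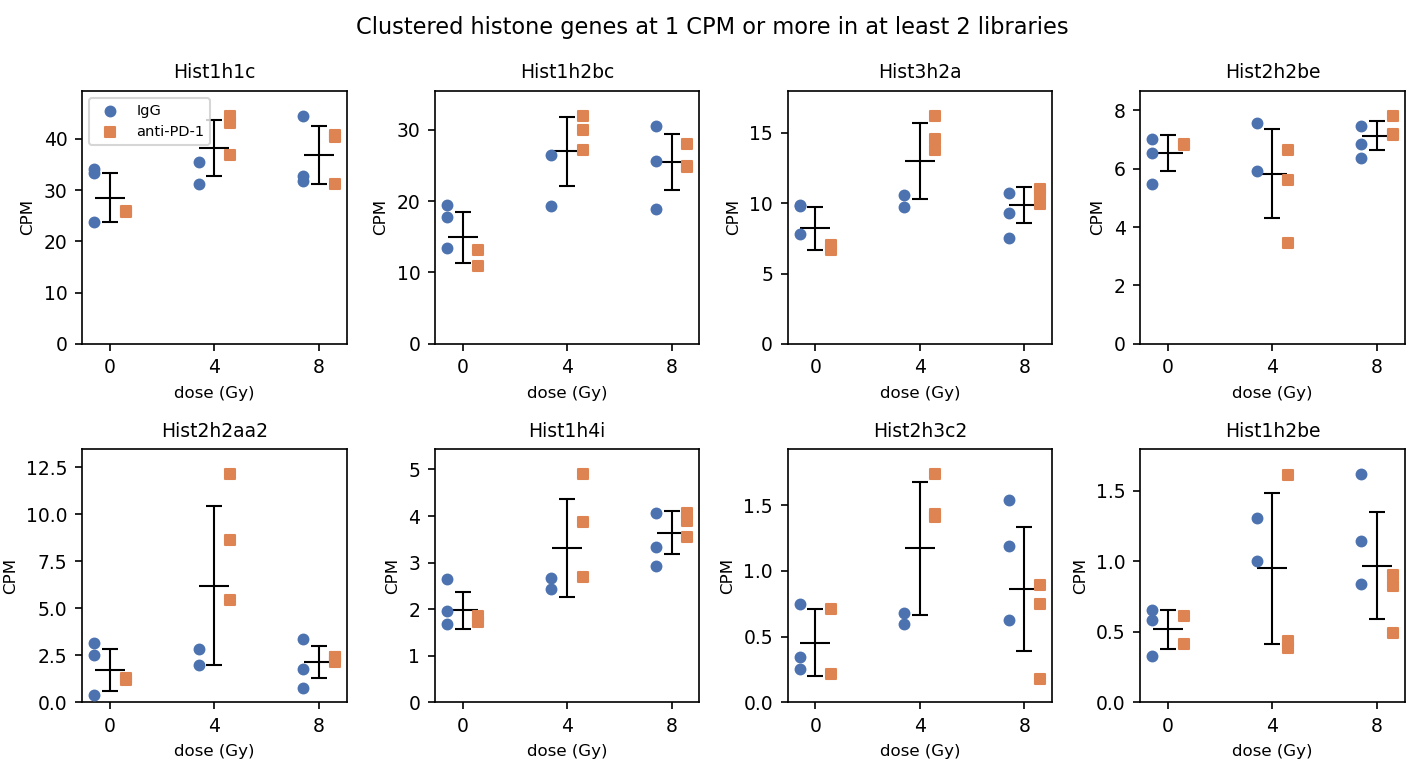
CPM of the 8 tested members in each library (points; circles IgG, squares anti-PD-1) by radiation dose in Gy, with the mean and SD over each dose in black (n = 5, 5 and 6 libraries). Hist1h2bc and Hist1h4i sit higher at 4 and 8 Gy, Hist3h2a and Hist2h2aa2 are highest in the 3 anti-PD-1 libraries at 4 Gy, and the dose groups of Hist2h2be overlap.

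The 4 Gy calls rested on few libraries. Replicates 2 and 3 of anti-PD-1 at 4 Gy lay farthest out on the first principal component of all genes, at -81.5 and -98.3 against -46.8 to 51.9 elsewhere, and 6140 and 5364 genes had no read there against 2315 to 3904. Without both, 0 of the 8 members passed at 4 Gy by limma and 87 genes passed in all. The changes were then 0.79 for Hist1h2bc (adjusted p = 0.0893), 0.60 for Hist3h2a (0.0966), 1.098 for Hist2h2aa2 (0.227) and 0.59 for Hist1h4i (0.126). Leaving out IgG 4 Gy replicate 2 alone also left 0 members. Leaving out IgG 4 Gy replicate 1, anti-PD-1 4 Gy replicate 2 or either anti-PD-1 library at 0 Gy left 2. At 8 Gy against 0 Gy, Hist1h2bc and Hist1h4i passed in all 25 alternatives.

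Between 8 and 4 Gy, 34.3% of all genes tested changed, 17.2% being lower at 8 Gy, and 1 of 8 members passed. Hist2h2aa2 fell by 1.00 ± 0.36 on the log2 scale (SE, limma, adjusted p = 0.0449), with 8 Gy levels of 3.38, 1.76 and 0.751 CPM with IgG and 2.17, 2.43 and 2.41 with anti-PD-1. The call ended under 16 of the 25 alternatives, among them the fit without both outlying libraries (0 members, change -0.72). Hist3h2a, at 10.7, 9.28 and 7.56 CPM with IgG and 9.97, 10.6 and 11.0 with anti-PD-1 at 8 Gy, changed by -0.31 ± 0.12 (SE, limma, adjusted p = 0.0524). The remaining 6 lay between -0.23 and 0.27, with Hist2h2be at 6.38, 6.84, 7.47, 7.82, 7.15 and 7.19 CPM at 8 Gy.

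Summed over all 58 members, the clustered histone signal was 58.2 to 83.5 CPM at 0 Gy, 79.9 to 122 at 4 Gy and 81.7 to 109 at 8 Gy. The 50 untested members together held 3.85 to 6.79 CPM at 0 Gy, 5.66 to 9.30 at 4 Gy and 5.70 to 7.51 at 8 Gy, ranges that overlap. With the limit lowered to 0.5 CPM, 15 members were tested and Hist1h1d, a linker histone gene, was also called at 8 Gy against 0 Gy (limma). Its levels were 0.302 ± 0.10 CPM (SD, n = 5) at 0 Gy and 0.589 ± 0.12 (SD, n = 6) at 8 Gy. Hist1h1d reached 0.5 CPM only in irradiated libraries and was thus tested only through them, so this call is a description. Hist1h4h was also called at 4 Gy with anti-PD-1, both at that limit and with all 58 tested.

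The antibody itself was compared over all doses. None of the 8 members passed (limma, 0 also at an unadjusted p under 0.05), where 0.234% of all genes tested did. The largest change was that of Hist2h2aa2, 0.55 ± 0.30 (SE, limma, adjusted p = 0.330), and the others lay between -0.30 and 0.15. Within the IgG groups 0 of 8 members passed at 8 Gy against 0 Gy (4 at an unadjusted p under 0.05; 10.6% of all genes passed) and 0 of 8 at 4 Gy against 0 Gy (0 unadjusted; 0.00570% of all genes). Within the anti-PD-1 groups, 1 of 8 passed at 8 Gy, Hist1h2bc at 1.08 ± 0.21 (SE, limma, adjusted p = 0.0172; 2.83% of all genes). That call ended without either anti-PD-1 library at 0 Gy, and without anti-PD-1 8 Gy replicate 1.

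At 4 Gy with anti-PD-1, 6 of 8 members rose, where 39.3% of all genes changed and 13.4% rose: Hist2h2aa2 by 2.35, Hist1h2bc by 1.27, Hist2h3c2 by 1.12, Hist3h2a by 1.06, Hist1h4i by 0.88 and Hist1h1c by 0.67 on the log2 scale. Hist2h3c2 reached 1 CPM in 0 of 5 libraries at 0 Gy and 3 of 5 at 4 Gy. It was thus tested only through irradiated libraries, and the count of 6 is a description. Without both outlying libraries, which leaves 1 library in that group, 0 passed, and without anti-PD-1 0 Gy replicate 2 there were 2. Whether the dose effect differed between antibodies was tested as an interaction. At 4 Gy, Hist3h2a alone among the 8 passed, its change being 0.91 ± 0.25 larger with anti-PD-1 (SE, limma, adjusted p = 0.0447; 9.08% of all genes passed). Leaving out 1 library at a time ended this call in 12 of 16 fits, as did fitting without both outlying libraries, with no filter, with the replicate block and when only the groups compared were fitted. At 8 Gy 0 of 8 passed (1 at an unadjusted p under 0.05), and 0% of all genes.

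**Figure D4:**
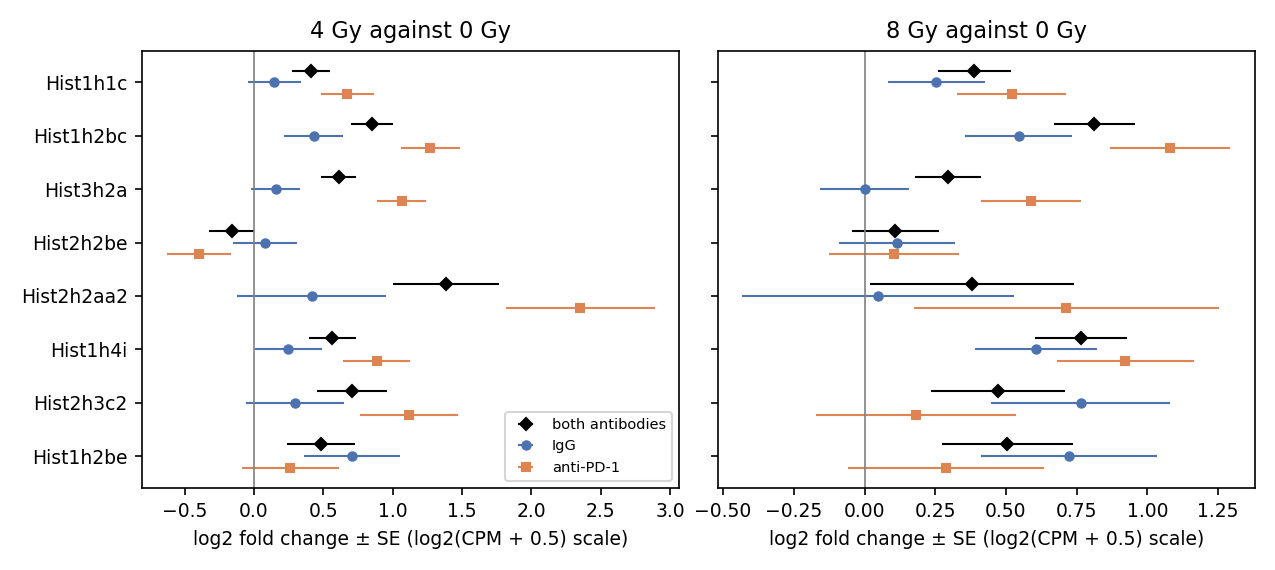
Log2 fold change with SE (limma, log2(CPM + 0.5) scale) of the 8 tested members at 4 Gy (left) and 8 Gy (right) against 0 Gy, averaged over antibodies and within each. Hist1h2bc and Hist1h4i lie at similar values at both doses, and Hist2h2aa2 and Hist3h2a lie higher at 4 Gy with anti-PD-1, at 2.35 and 1.06.

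Genes that make and use histone messages were counted beside the clustered genes, from lists chosen by function. Of 37 DNA replication genes, 2 rose (Mcm4 and Ccne1) and 2 fell (Cdk2 and Tk1) at 8 Gy, and 0 rose and 6 fell at 4 Gy, with median changes of 0.14 and -0.20. Over all genes tested, 16.1% fell at 8 Gy and 12.2% at 4 Gy, so that the 6 of 37 are near the background. Of 21 mitosis genes, 0 changed at 8 Gy (limma; 2 at an unadjusted p under 0.05) and 12 fell at 4 Gy, with Mki67 at -0.52 ± 0.12 (SE, limma, adjusted p = 0.0173). Of 25 genes for transcription and 3′ end formation of histone messages, 2 fell at 8 Gy, Srrt and Hinfp, and 5 fell at 4 Gy, among them Npat, the coactivator of histone genes in S phase, at -0.74. Slbp changed by 0.23 at 8 Gy and -0.18 at 4 Gy, neither passing. Pcna, the sliding clamp of replication, changed by 0.25 and -0.25, neither passing. Of 19 histone chaperone and acetyltransferase genes, 2 rose and 1 fell at 8 Gy, and 6 fell at 4 Gy. At 4 Gy averaged over antibodies no gene of these 4 lists rose. Within the IgG groups none of their genes passed at 4 Gy (limma). With anti-PD-1 at 4 Gy, 15 of 37 replication and 15 of 21 mitosis genes fell. So did 9 of 25 genes for transcription and 3′ end formation and 6 of 19 chaperone and acetyltransferase genes. Over all genes tested, 4547 of 17546 fell and 2347 rose there. In each of these lists but that for mitosis, 1 gene rose. Without both outlying libraries 87 of all genes tested passed at 4 Gy averaged over antibodies.

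Non-clustered histone genes are given beside the clustered ones, with no test between the lists. At 8 Gy against 0 Gy 0 of 12 passed (limma; 2 at an unadjusted p under 0.05), with H3f3a, H3f3b, H2afz and H2afx at 0.15, 0.14, 0.07 and 0.05, and a list median of -0.01. At 4 Gy H2afj rose and H1f0, a linker histone of resting cells, fell by 0.65 ± 0.14 on the log2 scale (SE, limma, adjusted p = 0.0160), with a list median of -0.06. With anti-PD-1 alone at 4 Gy, 3 of 12 rose and 3 fell, where 2347 and 4547 of 17546 genes tested did, with a list median of 0.23. Cdkn1a, the p53 target that halts the cell cycle before S phase, rose by 1.81 ± 0.13 at 4 Gy (SE, limma, adjusted p = 2.46e-05) and 1.63 ± 0.13 at 8 Gy (adjusted p = 5.09e-05), with 7 of 10 p53 arrest targets higher at 8 Gy and 5 of 10 at 4 Gy, where 4.68% and 5.33% of all genes tested rose.

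Other signals moved with dose in the same libraries. Over all genes tested, 4.68% rose and 16.1% fell at 8 Gy, and 5.33% rose and 12.2% fell at 4 Gy. All 7 red blood cell genes rose at 8 Gy and 2 at 4 Gy, with summed levels of 1961 to 21926 CPM at 0 Gy, 5294 to 30116 at 4 Gy and 6482 to 22297 at 8 Gy. Of 9 mitochondrially encoded genes, 8 rose at 8 Gy and 7 at 4 Gy, their sums running from 8791 to 30995, 36167 to 56912 and 14861 to 71818 CPM. At 8 Gy, 8 of these 9 passed with IgG and 0 with anti-PD-1, where all 9 changes were still above 0. Alveolar type 2 genes, which mark the tissue as lung, summed to 944 to 5098, 5339 to 13079 and 1407 to 2824 CPM, with 5 of 6 higher at 4 Gy. Alveolar type 1 genes were higher in 3 of 6 at 4 Gy and lower in 4 of 6 at 8 Gy, and endothelial genes higher in 5 of 6 at 4 Gy. Of skeletal muscle genes 4 of 4 fell at both doses (median log2 change -1.82 at 4 Gy and -2.29 at 8 Gy), and of fibroblast genes 3 of 6 fell at both. Macrophage and monocyte genes rose in 3 of 6 at 8 Gy and 1 of 6 at 4 Gy. Their part in the histone results was not tested. The S numbers in the sample titles, whose meaning the labels do not state, ran from 13 to 17 at 0 Gy, 26 to 30 at 4 Gy and 31 to 36 at 8 Gy, so anything that went with them and the dose cannot be told apart.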

How the data were processed

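RNA of 16 libraries was made into libraries from 1 µg of total RNA, per the labels' protocols. Reads were handled with STAR and Partek on mm10, per the submitters' processing notes; their versions, the annotation and whether strand was used were all not given in the sources used here. The deposited values are CPM, to which the authors had added 1e-04, and 55.5 to 63.2% of low values in a library came out as whole reads (tolerance 0.02), so no count model was used. Columns were matched to libraries by the names in the titles.

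The 17546 genes that reached 1 CPM in 2 or more libraries were tested as log2(CPM + 0.5) by limma 3.58.1 under R 4.3.3 (6 group means, trend and robust empirical Bayes, Benjamini-Hochberg, threshold 0.05), which was tested on simulated data. The value of 1 read gives the depth. Transcript ends came from GENCODE M21 and promoters from RefSeq. Same-numbered libraries of different groups showed no common tendency to deviate together (36 pairs, median r = -0.10, from -0.55 to 0.44, 11 over 0.1). The numbers were therefore not taken as pairs, though this does not exclude a pairing. They are the numbers within each group, and a pairing by the leading part of the titles was not checked. Tested members are given in every library. From each other list, genes with the lowest p are named beside Slbp, H2afz, H2afx, H3f3a, H3f3b, Mki67, Pcna and Cdkn1a. The members and lists were chosen with earlier results of these data known. Alternatives were other scalings, pseudocounts and filters, a replicate block, only the groups compared, and leaving libraries out.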

Additional observations from a re-analysis of the deposited data

Results flagged for a closer look

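The change of Hist3h2a at 4 Gy against 0 Gy differed between antibodies, being 0.91 larger on the log2 scale with anti-PD-1 than with IgG (limma interaction, SE 0.25, adjusted p = 0.0447). Leaving out 1 library at a time ended the call in 12 of 16 fits, as did the replicate block, no filter, fitting only the groups compared and leaving out both outlying libraries. With anti-PD-1 it went from 7.01 and 6.66 CPM up to 14.6, 13.8 and 16.2, and with IgG from 9.78, 7.79 and 9.84 to 9.77 and 10.6. Both the 4 Gy anti-PD-1 levels and the 0 Gy anti-PD-1 levels thus lie outside the IgG ranges, above and below them. Of the 3 high libraries, 2 are the outlying ones. The 24 checks for a library far from the rest took each tested member at each dose, with both antibodies pooled. None singled a library out, and the groups of a single antibody and dose were not checked apart.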

How the results depend on the processing

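Calls of Hist1h2bc and Hist1h4i at 8 Gy against 0 Gy held under all 25 alternatives, that of Hist1h1c ended under 15. At 4 Gy the call of Hist1h4i ended under 11, of Hist2h2aa2 under 8, of Hist3h2a under 3 and of Hist1h2bc under 2. Members called under other settings were as follows. Quantile normalization gave 5 at 8 Gy against 0 Gy, 2 with IgG and 3 with anti-PD-1, and between 8 and 4 Gy called Hist2h2be (higher) in place of Hist2h2aa2. Setting library medians equal, which moved the median change of all genes from -0.09 to 0.02 at 8 Gy and from -0.14 to -0.03 at 4 Gy, gave 1 with IgG and 2 with anti-PD-1 at 8 Gy. A pseudocount of 0.1, no filter and the replicate block each left 0 between 8 and 4 Gy, and the last 2 also left 0 in the 4 Gy interaction. Under the replicate block 3 members were called at 8 Gy and 5 at 4 Gy against 0 Gy. Fitting only the groups compared left 1 at 4 Gy and 0 in the 4 Gy interaction. Without both outlying libraries, 0 were left at 4 Gy, 0 at 4 Gy with anti-PD-1, 0 between 8 and 4 Gy and 0 in the 4 Gy interaction, and 2 at 8 Gy with anti-PD-1. Leaving out 1 library at a time gave 2 to 3 at 8 Gy, 0 to 5 at 4 Gy, 0 to 2 between 8 and 4 Gy, 0 to 2 at 8 Gy and 2 to 7 at 4 Gy with anti-PD-1, and 0 to 2 in the 4 Gy interaction (0 in 12 of 16). Members detected numbered 43, 15 and 5 at 0.1, 0.5 and 5 CPM. The cause of these changes was not tested.

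Directions reversed only for changes that had not passed. These were Hist2h3c2 between 8 and 4 Gy (0.016, quantile normalization), Hist1h2bc with antibody (0.0011, pseudocount 1) and Hist1h1c between 8 and 4 Gy (0.0086, replicate block). Without both outlying libraries they were Hist2h2be at 4 Gy (0.020) and with antibody (0.063), Hist1h2bc (0.025) and Hist1h2be (-0.38) between 8 and 4 Gy. Leaving out 1 library gave ranges across 0 between 8 and 4 Gy for Hist1h1c (-0.10 to 0.039), Hist1h2bc (-0.15 to 0.071) and Hist1h2be (-0.090 to 0.22). With antibody the ranges were -0.0084 to 0.097 for Hist1h1c, -0.074 to 0.072 for Hist1h2bc, -0.12 to 0.025 for Hist2h2be and -0.039 to 0.21 for Hist2h3c2.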

Other observations

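Among the 50 members that were not tested, 2 were seen mostly in a single library, chosen here after their values were seen. Hist1h3h, an H3 gene, stood at 0.493 CPM in anti-PD-1 4 Gy replicate 2 and at no more than 0.00991 CPM in any other. Hist1h2bl, an H2B gene, stood at 0.297 CPM in that same library and at no more than 0.0303 elsewhere. This is 1 of the 2 outlying libraries, where 1 read was worth 0.0418 CPM. Hist1h4n, an H4 gene, reached 1.42 CPM in anti-PD-1 4 Gy replicate 1, with 0.419 as its next highest value. Hist1h3h shared 93.9%, Hist1h2bl 82.8% and Hist1h4n 85.6% of their 50-base stretches with other genes. The part of read assignment in these values was not tested.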
